A study of Mus musculus with 91 samples.

Results

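The miR-181 family was described through its 4 mature 5p miRNAs, mmu-miR-181a-5p, mmu-miR-181b-5p, mmu-miR-181c-5p and mmu-miR-181d-5p, which were taken by name from a table of 1504 mature mouse miRNAs. All 4 members were found. The counts came from CAS-seq, a small-RNA sequencing method for very small inputs in which Cas9 removes unwanted ligation products before amplification, applied to *Dnmt*-mutant mouse embryos, androgenetic haploid embryonic stem cells (AG-haESCs, which carry a sperm genome) and semi-cloned (SC) embryos, made by injecting AG-haESCs into oocytes in place of sperm. Of 91 libraries, 88 fell into 25 labelled groups. The 62 embryo libraries came from extraembryonic ectoderm (Exe) and epiblast (Epi), separated by hand at both E6.5 and E7.5. Their genotypes were *Dnmt*-null, *Dnmt3a/3b*-DKO, *Dnmt1*-KO or Control, with 4 libraries per group except for 3 in each of the E7.5 Epi Control and E7.5 Epi *Dnmt*-null groups. The labels give C57BL/6 male and F1 female parents for all embryos. Stop codons had been placed in *Dnmt1*, in *Dnmt3a* with *Dnmt3b*, or in all 3 genes (*Dnmt*-null) by injecting a cytosine base editor and guide RNAs into zygotes. The study describes the Control embryos it imaged as derived by the same method, but what was injected into them is not given in the sources used here. The AG-haESCs, grown with 2i and Lif, were WT (3 libraries), O48 (3) and Mir-6KO (2). The line DKO lacks the *H19* and *IG* differentially methylated regions, O48 is the line from which the deletion clones were made and is taken to be of that DKO background, and Mir-6KO is a clone in which miR-127, miR-369, miR-409, miR-540, miR-541 and let-7b were deleted, so that SC embryos made from it carry 1 deleted copy. At E6.5 the SC embryos were WT, DKO, *Dnmt*-null or DKO;*Dnmt*-null, and at E7.5 they were Control or Mir-6KO;*Dnmt*-null, with 3 libraries each, the Control being made from DKO cells. DKO in the cells and SC embryos is thus a deletion of imprinting control regions and is not the *Dnmt3a/3b*-DKO of the natural embryos.

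A miRNA is cut from a hairpin and loaded into Argonaute, where bases 2 to 8 at its 5′ end, the seed, pair with target mRNAs and lower their output. miRNAs with one seed form a family because they can share targets. miR-181 is best known from lymphocyte development, where it tunes antigen receptor signalling, and from vessels and differentiating muscle, and in mammals its members are made from 3 paired clusters. The question asked of the data was how these members are divided among tissues, stages and cell types, and how their levels compare between embryos with and without DNA methyltransferases.

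The 4 mature 5p sequences are shown because they define the family and because they are so alike that a read may be hard to assign. They are written 5′ to 3′ from RefSeq on GRCm38.p6, with the seed in capitals.
mmu-miR-181a-5p: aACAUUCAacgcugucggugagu
mmu-miR-181b-5p: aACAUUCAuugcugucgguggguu
mmu-miR-181c-5p: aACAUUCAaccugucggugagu
mmu-miR-181d-5p: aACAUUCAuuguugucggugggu
All 4 share 1 seed, and no other mature mouse miRNA of the RefSeq table has it. With positions counted from 1 at the 5′ end, miR-181b-5p and miR-181d-5p differ by C12U and by the length of the 3′ end, an edit distance of 2. miR-181a-5p and miR-181c-5p lie at an edit distance of 1, whereas miR-181a-5p and miR-181b-5p differ by A9U, C10U and A21G and by length, an edit distance of 4. The closest pairs in sequence are therefore not the pairs made from one cluster. The authors' handling of reads that match several members is not given in the sources used here, so the split between miR-181a-5p and miR-181c-5p, and between miR-181b-5p and miR-181d-5p, is uncertain to that extent.

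The genes lie in 3 clusters on GRCm38. miR-181a-5p is encoded by *Mir181a-1* (chr1:137966468-137966490, plus strand) and *Mir181a-2* (chr2:38852741-38852763, plus strand), and miR-181b-5p by *Mir181b-1* (chr1:137966650-137966673, plus strand) and *Mir181b-2* (chr2:38853845-38853868, plus strand), so the 5p counts of either cannot be divided between its genes. miR-181c-5p (chr8:84178924-84178945, minus strand) and miR-181d-5p (chr8:84178759-84178781, minus strand) have 1 gene each, whose 5p arms begin 164 bases apart. In GENCODE vM21 the chromosome 1 pair lies in an intron of the noncoding transcript *Gm4258*, with *Mir181b-1* also inside an exon of the lincRNA *A430106G13Rik*. The chromosome 2 pair lies opposite an intron of *Nr6a1*, which encodes a nuclear receptor, with *Mir181b-2* also opposite an exon of *Gm44144*. The chromosome 8 pair lies on the same strand within an intron of *Nanos3*, a germ cell gene. None of the 5p sequences overlaps a coding sequence or a UTR.

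**Figure D1:**
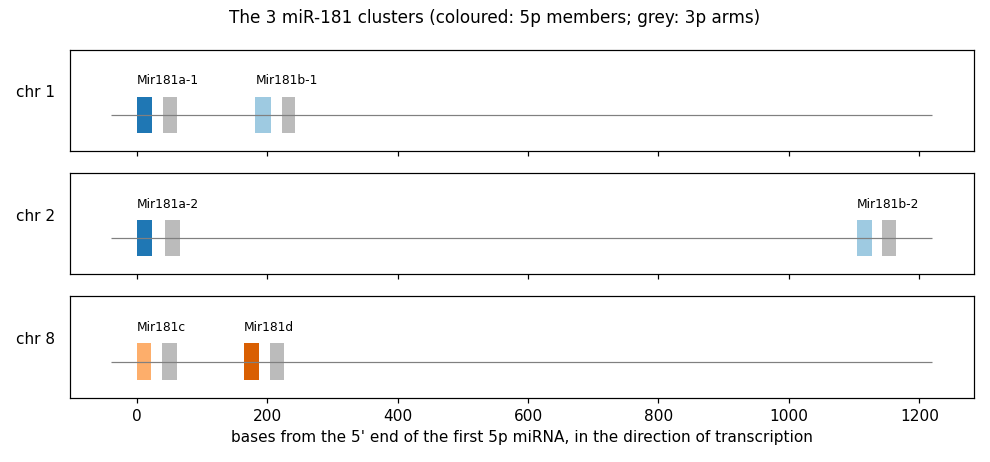
Map of the 3 miR-181 clusters, 1 per row, with the distance in bases from the 5′ end of the first 5p miRNA on the x axis (coloured boxes, 5p members; grey boxes, 3p arms). The 5p arms of the pair begin 182 bases apart on chromosome 1, 1104 on chromosome 2 and 164 on chromosome 8.

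Library totals ranged from 45242 to 26970637 counts (median 510894), and the E6.5 embryo libraries were the shallowest (45242 to 600821). Levels are given in CPM, counts scaled to a library total of 1000000, and 3 counts, the limit below which a level is not read here, correspond to 0.111 to 66.3 CPM depending on the library. *Dnmt* mRNAs are not in miRNA counts, so the mutations could not be checked. The dissected tissues did carry their markers: the summed level of the 5 miR-302/367 miRNAs, typical of epiblast, was 130389 to 200354 CPM in the E6.5 Control Epi libraries and 17588 to 30822 CPM in those of Exe, and the 6 *Sfmbt2*-cluster miRNAs typical of Exe gave 5747 to 26338 CPM and 38466 to 69072 CPM. Within the Exe list miR-467a-5p and miR-467b-5p had the same lowest, median and highest values (8106, 9386 and 11618 CPM in E6.5 Control Exe). The same reads may therefore enter the Exe sums more than once. Some libraries stood apart. The libraries labelled AG-haESC Mir-6KO went against their label, since miR-127-3p, deleted in that clone, stood at 44853 and 35728 CPM in them against 551 to 594 CPM in O48, and their profiles over 574 miRNAs were closer to SC E7.5 Control (Spearman's rho 0.920 and 0.893) than to O48 (0.552 for both). E6.5 Exe *Dnmt1*-KO replicate 3 held 0 counts of all 4 members among 293171, E6.5 Epi *Dnmt*-null replicate 1 had the lowest total (45242), and in SC E6.5 WT replicate 3 the epiblast miRNAs stood at 21252 CPM against 195381 to 214514 CPM in the other 2. Nothing in the sources states that libraries of a group came from separate embryos, so p-values measure the spread between libraries only.

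miR-181d-5p was the most abundant member nearly everywhere. It led in 78 of the 87 libraries that held any count of the family, miR-181a-5p led in 6 and miR-181b-5p in 2, with 1 tie. It was at 0 in 1 of 88 libraries, whereas miR-181a-5p was at 0 in 5, miR-181b-5p in 12 and miR-181c-5p in 22. miR-181c-5p, made next to miR-181d-5p, was the scarcest in this sense and had at most 3 counts in 37 libraries. All libraries not led by miR-181d-5p alone were Exe libraries. By mean CPM, miR-181d-5p ranked from 99th of 923 miRNAs detected in O48 AG-haESCs to 339th of 720 in E6.5 Exe *Dnmt3a/3b*-DKO, and in E6.5 Control it ranked 157th of 889 in Epi and 278th of 664 in Exe.

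Ordered by group mean, miR-181d-5p was highest in E6.5 Epi *Dnmt*-null (912 CPM ± 573, SD, n = 4, spread widely by replicate 1) and E6.5 Epi *Dnmt3a/3b*-DKO (819 ± 246, n = 4), and lowest in E6.5 Exe *Dnmt3a/3b*-DKO (62.7 ± 46.6, n = 4). The ranges of neighbouring groups in this order overlapped in 23 of 24 pairs, with the break below SC E6.5 DKO;*Dnmt*-null. Sorting small groups by mean places like values side by side, so such overlaps cannot tell a gradient from steps. miR-181a-5p was highest in E7.5 Epi *Dnmt*-null (254 ± 93.3, n = 3) and lowest in O48 (11.2 ± 4.89, n = 3), and neighbours overlapped in 24 of 24 pairs. miR-181b-5p was highest in the E7.5 Epi *Dnmt3a/3b*-DKO group (156 ± 18.8, n = 4) and lowest in E6.5 Exe *Dnmt*-null (2.63 ± 5.27, n = 4). miR-181c-5p had its steadiest high level in AG-haESCs, at 112 ± 23.9 (n = 3) in WT and 93.7 ± 13.2 (n = 3) in O48, and its ordering broke below O48.

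Across group means of the main table the members moved by cluster. Spearman's rho over 24 groups was 0.86 for miR-181a-5p with miR-181b-5p and 0.899 for miR-181c-5p with miR-181d-5p, against 0.310 for miR-181a-5p with miR-181c-5p and 0.452 for miR-181b-5p with miR-181d-5p, although those last pairs are the closest in sequence. These values are descriptions, since the points share libraries, depths and the CPM scale. The family's summed level was 603 CPM (n = 4) in E6.5 Control Epi, of which miR-181c-5p and miR-181d-5p together made 73.7% ± 3.08 (SD). In E7.5 Control Epi they made 46.2% ± 4.16 (n = 3) of a like total of 605 CPM. In WT AG-haESCs they made 93.9% ± 1.29 (n = 3), of which miR-181c-5p alone was 13.8% of the family. The lowest share of the chromosome 8 pair was 34.0% (n = 4), in E6.5 Exe *Dnmt3a/3b*-DKO, where miR-181a-5p made 57.3% ± 32.0, a value that rests on few counts per library.

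**Figure D2:**
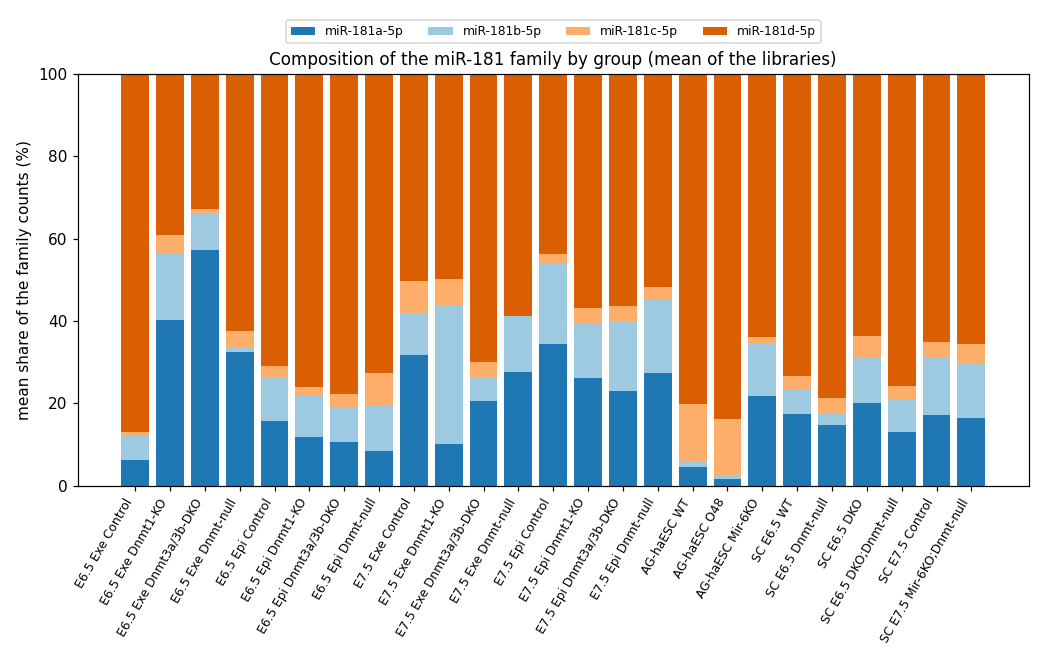
Mean share of the family counts in percent (y axis) taken by each member in each of the 25 groups (x axis), with libraries that held no member left out. miR-181d-5p takes most of the counts in WT AG-haESCs (80.1%) and in E6.5 Control Epi (70.9%), whereas in E7.5 Control Epi it takes 43.6% and miR-181a-5p 34.4%.

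Control embryos were compared between tissues and stages. In E6.5 Control Epi, miR-181d-5p stood at 468, 313, 431 and 495 CPM, and in E6.5 Control Exe at 122, 129, 143 and 70.3 CPM, so that every Epi library lay above every Exe library. miR-181a-5p stood at 41.9, 92.5, 125 and 109 CPM in Epi and at 0, 28.8, 19.8 and 0 CPM in Exe. The measured values did not overlap, but the 0 of Exe replicate 1 has a limit of 45.6 CPM at 3 counts, above the lowest Epi library. Both were lower in Exe by edgeR's quasi-likelihood test with Benjamini-Hochberg adjustment over 558 miRNAs, miR-181a-5p with -2.85 on the log2 scale (SE 0.79, adjusted p = 0.0103) and miR-181d-5p by -1.95 (SE 0.37, adjusted p = 0.000639). miR-181b-5p was at 0 in 3 of the 4 Exe libraries and 50.4 CPM in the other, inside its Epi range of 28.5 to 93.7 CPM, and did not pass (-2.47, SE 0.97, adjusted p = 0.0618), though it did without that library (adjusted p = 0.000911, where 0.000911 to 0.148 was the range over all alternatives), and neither did miR-181c-5p (adjusted p = 0.116). Thus 2 of 4 members were called lower, where 15.6% of all miRNAs tested were, and the members' median log2 fold change was -2.66 against -0.16 over all. In bulk tissue, fewer cells of a type and less RNA per cell cannot be told apart.

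At E7.5 the tissue difference was again seen for miR-181d-5p, at 201, 344 and 254 CPM in Control Epi and 148, 106, 125 and 132 CPM in Control Exe, with no overlap. Its log2 fold change, Exe minus Epi, was -1.14 (SE 0.37, adjusted p = 0.0218), but 3 of 13 alternatives ended the call: no filter on low counts (adjusted p = 0.154), the replicate block (0.0563) and leaving out E7.5 Exe Control replicate 2 (0.0655). The lowest adjusted p was 8.76e-05. miR-181b-5p stood at 136, 139 and 77 CPM in Epi and at 21.7, 30.3, 28.5 and 26.0 CPM in Exe, also with no overlap, and missed the threshold (-2.22, SE 0.87, adjusted p = 0.0573), which it passed with DESeq2 (0.00202; 0.00181 to 0.135 over all alternatives). miR-181a-5p gave -1.30 (SE 0.67, adjusted p = 0.151, and 0.0317 to 0.236 over all alternatives). So 1 of 4 members was called lower at E7.5, against 10.9% of all miRNAs, with a median of -1.22 for the members and 0.00 over all.

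Between E6.5 and E7.5 the Control Exe changed in 1 member. miR-181a-5p, at 0 to 28.8 CPM at E6.5, stood at 33.4, 151, 80.2 and 90.1 CPM at E7.5. Each exceeded the levels measured at E6.5, but 1 of the E6.5 zeros (replicate 1) has a limit of 45.6 CPM, above the lowest E7.5 library. It rose by 2.72 on the log2 scale (SE 0.78, adjusted p = 0.0247). Without E7.5 Exe Control replicate 2 the adjusted p was 0.0653, and without replicate 4 it was 0.0546. With only the groups compared it was 0.119 (0.00546 to 0.119 over all alternatives). miR-181d-5p did not differ beyond its spread (0.16, SE 0.36, adjusted p = 0.890), and its sign turned (-0.086) without E6.5 Exe Control replicate 4. The background of higher calls here was 10% of all miRNAs, and the members' median was 1.91 against 0.08. Other markers also differed between these stages in Exe: the 2 endothelial miRNAs (miR-126a arms) summed to 179 to 302 CPM at E6.5 and 1351 to 3075 CPM at E7.5, with neither of them at 0 in all libraries of a stage, and the epiblast miRNAs had medians of 19468 and 42882 CPM. Their part in the rise of miR-181a-5p was not tested.

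In Control Epi no member passed between the stages, where 26.5% of miRNAs did, and 0 of 4 had an unadjusted p under 0.05 or were called by DESeq2. miR-181a-5p stood at 187, 221 and 211 CPM at E7.5, above all 4 E6.5 libraries (41.9 to 125 CPM), yet gave 1.18 (SE 0.67, adjusted p = 0.224). miR-181b-5p had an adjusted p of 0.538. miR-181d-5p gave -0.66 (SE 0.37, adjusted p = 0.223), its ranges overlapping. Whether the stage change differed between the tissues was tested directly, and no member passed (13.8% of miRNAs did): the difference, Epi minus Exe, was -1.55 (SE 1.04, adjusted p = 0.359) for miR-181a-5p and -0.81 (SE 0.52, adjusted p = 0.334) for miR-181d-5p, with 0 of 4 at an unadjusted p under 0.05 and 0 by DESeq2.

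**Figure D3:**
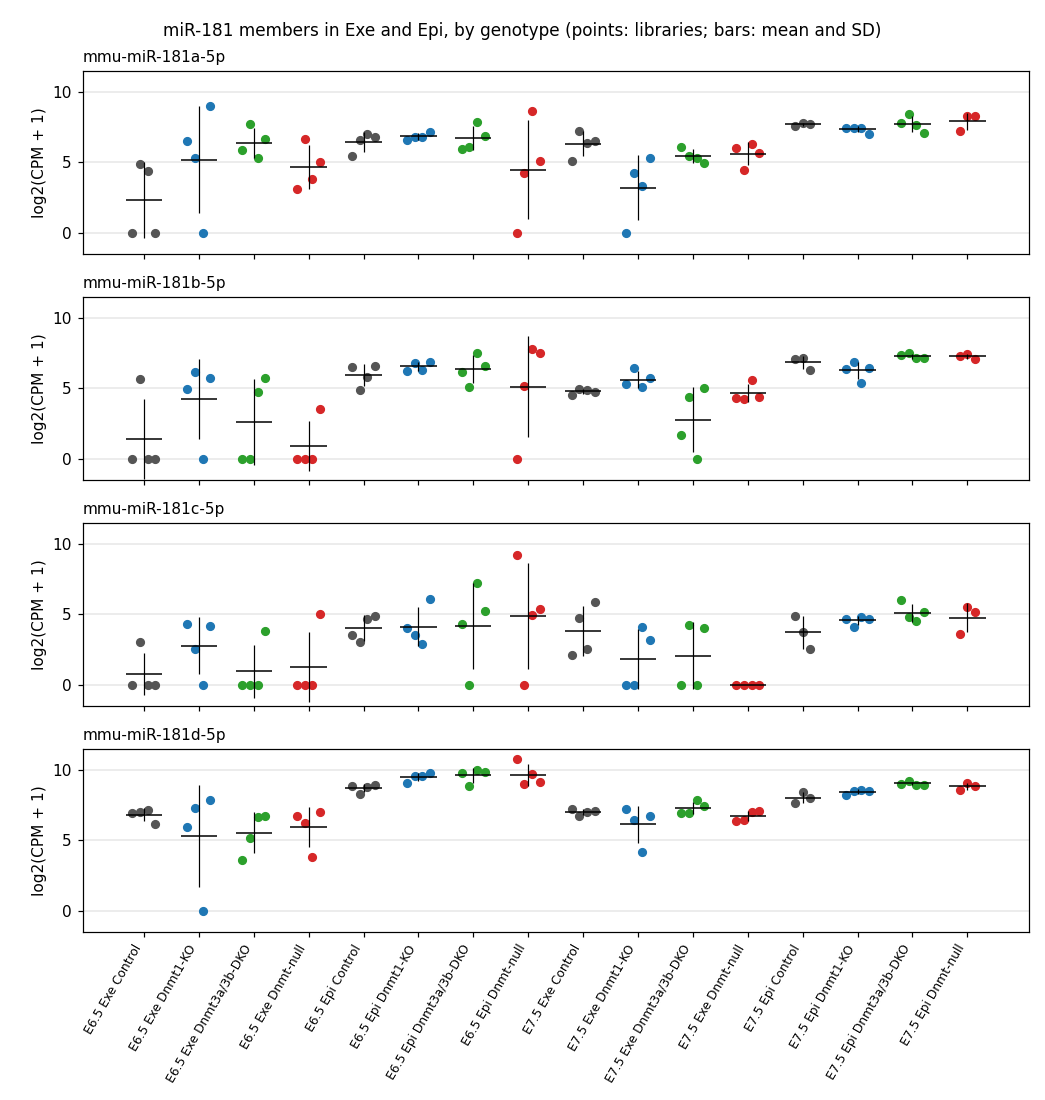
Levels of the 4 members in the 62 natural embryo libraries, as log2(CPM + 1) on the y axis by tissue, stage and genotype on the x axis (points, libraries; bars, mean and SD). miR-181d-5p lies between 313 and 495 CPM in E6.5 Control Epi and between 70.3 and 143 CPM in E6.5 Control Exe, and most zeros are in Exe.

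The genotypes were then compared with Control within each tissue and stage. In E6.5 Exe, where the libraries were shallow, only miR-181a-5p and miR-181d-5p passed the filter on low counts, which a miRNA can pass through 1 high group. miR-181a-5p stood at 88.4, 38.2, 0 and 499.9 CPM in *Dnmt1*-KO, at 57.2, 209.9, 38.0 and 98.9 CPM in *Dnmt3a/3b*-DKO and at 7.52, 97.9, 13.3 and 31.6 CPM in *Dnmt*-null, against 0 to 28.8 CPM in Control. The *Dnmt3a/3b*-DKO libraries lay above the measured Control values, though the lowest is under the limit of the Control replicate at 0 (45.6 CPM), and the other mutants overlapped Control. None passed: the log2 fold change of miR-181a-5p was 3.30 (SE 1.38, adjusted p = 0.384) in *Dnmt1*-KO and 2.66 (SE 1.36, adjusted p = 0.562) in *Dnmt3a/3b*-DKO. miR-181d-5p was at 60.8, 155, 0 and 237 CPM in *Dnmt1*-KO, at 11.4, 35, 101 and 103 CPM in *Dnmt3a/3b*-DKO and at 105, 73.4, 13.3 and 126 CPM in *Dnmt*-null, overlapping Control in each case. The background of calls was 0%, 0.532% and 0.532% of 376 miRNAs in the 3 comparisons. For the *Dnmt1*-KO, 1 of the 2 members had an unadjusted p under 0.05, and DESeq2 called none in any of them.

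In E6.5 Epi, miR-181d-5p had its highest levels in the mutants. It stood at 546, 763, 746 and 900.1 CPM in *Dnmt1*-KO, all above the Control libraries (313 to 495 CPM), at 891, 456, 1000.1 and 929.9 CPM in *Dnmt3a/3b*-DKO, with 1 library inside the Control range, and at 1746, 523, 825 and 552 CPM in *Dnmt*-null, all above it. None of these differences passed the test: the log2 fold changes were 0.72 (SE 0.42, adjusted p = 0.589), 0.90 (SE 0.43, adjusted p = 0.324) and 0.94 (SE 0.43, adjusted p = 0.165), and the last came to 0.45 without *Dnmt*-null replicate 1. Across all miRNAs 0.733%, 3.42% and 12.7% of 409 were called. Of the 3 members tested, 0 were called by edgeR or DESeq2 in any comparison, with 0, 1 and 1 at an unadjusted p under 0.05, and the medians were 0.44, 0.45 and 0.61 against -0.01, -0.12 and -0.14 over all. miR-181c-5p did not pass the filter. It reached 597 CPM in *Dnmt*-null replicate 1, in which miR-181a-5p and miR-181b-5p were at 0, and 0 to 40.6 CPM in the other 3. The epiblast miRNAs moved along with genotype here, with medians of 173282 CPM in Control, 150406 in *Dnmt1*-KO, 117830 in *Dnmt3a/3b*-DKO and 81495 in *Dnmt*-null, and their part was not tested.

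In E7.5 Epi, miR-181d-5p passed in *Dnmt3a/3b*-DKO. It stood at 518, 603, 494 and 495 CPM there, every library above the Control (201, 344 and 254 CPM), with a mean of 527 ± 51.5 (SD, n = 4) against 266 ± 72.1 (n = 3). On the log2 scale the difference was 0.90 (SE 0.23, adjusted p = 0.0136 by edgeR over 652 miRNAs), and the call was lost without *Dnmt3a/3b*-DKO replicate 2 (0.0534), Control replicate 1 (0.103) or Control replicate 3 (0.0734), with a range of 0.00136 to 0.103 over all alternatives. In *Dnmt*-null it stood at 385, 551 and 461 CPM, again above all Control libraries, a difference of 0.57 (SE 0.24, adjusted p = 0.0728) that passed with DESeq2 (0.0157, with 0.0157 to 0.274 over all alternatives). *Dnmt1*-KO libraries, at 295, 366, 380.5 and 366 CPM, overlapped the Control, and the difference was 0.22 (SE 0.22, adjusted p = 0.593). Higher calls made up 5.98% of all miRNAs in *Dnmt3a/3b*-DKO and 16.3% in *Dnmt*-null, and calls in either direction 16.6% in *Dnmt1*-KO.

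The other members did not pass in any E7.5 Epi genotype. miR-181a-5p was at 169, 176, 174 and 128 CPM in *Dnmt1*-KO, 219, 337, 203 and 133 CPM in *Dnmt3a/3b*-DKO and 147, 309 and 307 CPM in *Dnmt*-null, so that *Dnmt1*-KO lay below the Control (187 to 221 CPM, adjusted p = 0.324) and the other groups overlapped it. miR-181b-5p ranged from 40.8 to 177 CPM over the 3 mutants and miR-181c-5p from 11 to 63.5 CPM. The median of the 4 members was 0.61 in *Dnmt3a/3b*-DKO and 0.37 in *Dnmt*-null, against 0.02 and -0.19 over all miRNAs. The share of the family from the chromosome 8 pair was 60.3% ± 4.51 (n = 4), 54.9% ± 1.87 (n = 3) and 60.7% ± 4.98 (n = 4) in *Dnmt3a/3b*-DKO, *Dnmt*-null and *Dnmt1*-KO, every library above the 3 Controls (41.6% to 49.7%). This share was not tested. The 3 contrasts share their Control libraries.

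Between the E7.5 Epi mutants, miR-181d-5p differed by 0.35 (SE 0.22, adjusted p = 0.380) for *Dnmt*-null minus *Dnmt1*-KO and by -0.33 (SE 0.22, adjusted p = 0.358) for *Dnmt*-null minus *Dnmt3a/3b*-DKO, where 10.1% and 15.8% of miRNAs were called. No member passed in either, with 1 and 0 at an unadjusted p under 0.05 and 0 by DESeq2. Thus no difference between *Dnmt3a/3b*-DKO and *Dnmt*-null was detected, although 1 passed against Control and the other did not. The summed epiblast miRNAs had medians of 209870 CPM in Control, 169326 in *Dnmt1*-KO, 201875 in *Dnmt3a/3b*-DKO and 118312 in *Dnmt*-null, and the Exe miRNAs 2237, 3003, 4572 and 6274 CPM. Between Control and *Dnmt3a/3b*-DKO the 4 endoderm miRNAs (3459 to 4174 and 4581 to 5719 CPM), the 5 miR-290-cluster miRNAs typical of stem cells (17584 to 17933 and 18594 to 25789 CPM) and the Exe miRNAs (1952 to 2275 and 2716 to 5597 CPM) did not overlap either. The miR-290-cluster miRNAs were not particular to stem cells here, at 50343 to 63939 CPM in E7.5 Control Exe. Between Control and *Dnmt*-null the miR-290-cluster miRNAs were higher without overlap (27781 to 34830 CPM in *Dnmt*-null). Lower without overlap in *Dnmt*-null were the endoderm (2334 to 3042 CPM), endothelial (156 to 232 against 267 to 596 CPM) and mesenchyme miRNAs (7.33 to 61.5 against 232 to 396 CPM). The part of all these lists in the values of miR-181d-5p was not tested.

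In E7.5 Exe no member passed in any genotype. miR-181d-5p stood at 147, 84.4, 17.4 and 104 CPM in *Dnmt1*-KO, 121, 122, 229.6 and 175 CPM in *Dnmt3a/3b*-DKO and 82.6, 87.0, 127 and 134 CPM in *Dnmt*-null, overlapping the Control (106 to 148 CPM). Its log2 fold changes were -0.43 (adjusted p = 0.810), 0.30 (0.964) and -0.19 (0.924). miR-181a-5p was at 0, 17.8, 8.70 and 38.6 CPM in *Dnmt1*-KO against 33.4 to 151 CPM in Control, with 1 library inside the Control range, and gave -2.42 (SE 0.93, adjusted p = 0.134), which DESeq2 called (0.0283, and up to 0.351 in the others). The background was 5.53%, 3.02% and 11.2% of 597 miRNAs, with 1, 0 and 1 of 4 members at an unadjusted p under 0.05. *Dnmt*-null against *Dnmt1*-KO and *Dnmt3a/3b*-DKO called 1.01% and 3.18% of miRNAs and no member (0 and 1 at an unadjusted p under 0.05, 0 by DESeq2).

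miR-181c-5p had 0 counts in all 4 E7.5 Exe *Dnmt*-null libraries, against 3.34, 25.7, 4.83 and 58.1 CPM in Control. It was also low in the other mutants of this tissue. Its mean was 6.04 CPM in *Dnmt1*-KO, with replicates 1 and 2 at 0, and 8.35 CPM in *Dnmt3a/3b*-DKO, with replicates 1 and 3 at 0. Taking each *Dnmt*-null library at 3 counts, a mean of 6.44 CPM, the level was at least 3.57-fold lower than the Control mean of 23.0 CPM, or at least 1.75-fold lower than the mean without Control replicate 4 (11.3 CPM). The test did not call it (adjusted p = 0.10), and Control libraries themselves held levels under that limit.

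Whether the *Dnmt*-null effect differed between tissues was tested as an interaction. For miR-181d-5p the effect in Epi minus that in Exe was 1.77 (SE 0.86, adjusted p = 0.396) at E6.5, or 1.13 without E6.5 Epi *Dnmt*-null replicate 1, and 0.77 (SE 0.48, adjusted p = 0.431) at E7.5. No member passed at either stage, where 0% of 364 and 5.26% of 608 miRNAs did. At E7.5, 1 member had an unadjusted p under 0.05 and the same number was called by DESeq2: miR-181c-5p (adjusted p = 0.0586 by edgeR), whose value rests on the group at 0. At E6.5 both counts were 0.

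**Figure D4:**
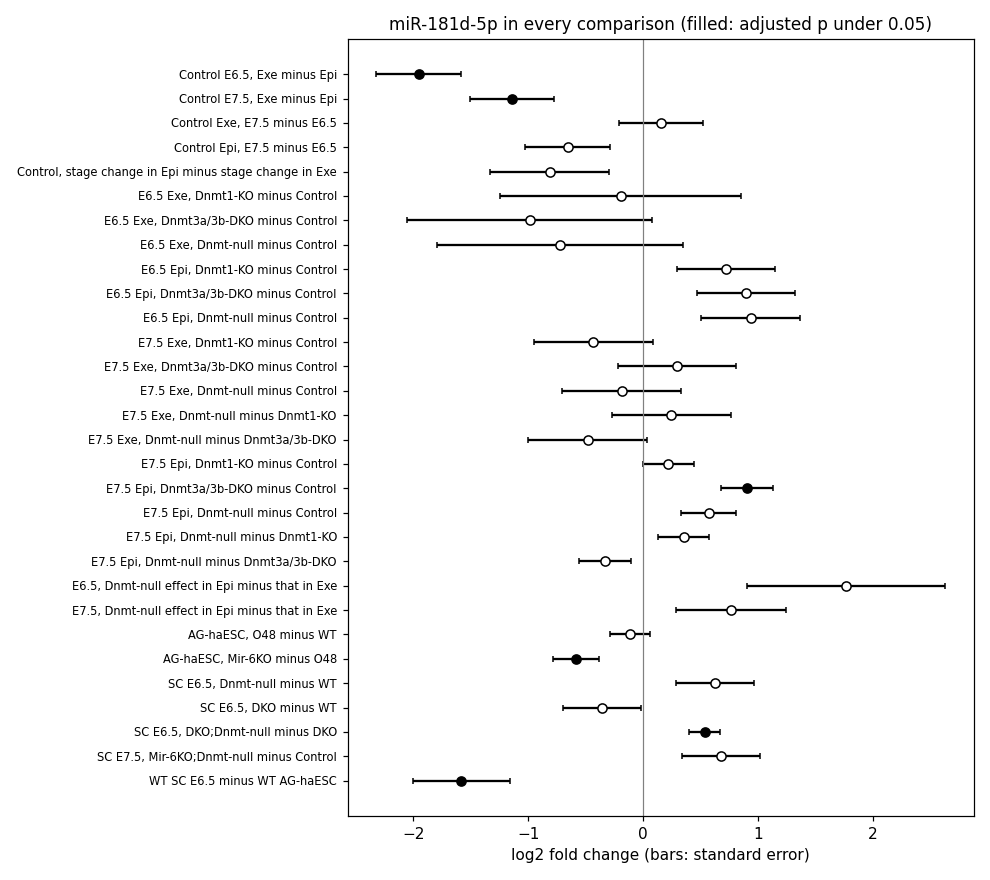
Log2 fold change of miR-181d-5p (x axis; bars, standard error) in each of the 30 comparisons (y axis), filled where the adjusted p was under 0.05. The Control tissue contrasts lie at -1.95 and -1.14, all 6 mutants of Epi lie above 0 with only E7.5 *Dnmt3a/3b*-DKO filled (0.90), and WT SC embryos minus WT AG-haESCs lies at -1.58.

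In AG-haESCs the chromosome 8 pair dominated. miR-181d-5p stood at 642, 643 and 643 CPM in WT and 637, 467 and 643 CPM in O48, and miR-181c-5p at 91.5, 138 and 105 CPM and 86.9, 85.4 and 109 CPM. By contrast miR-181a-5p was at 23.0, 47.1 and 39.9 CPM in WT and at 9.71, 16.7 and 7.29 CPM in O48, every O48 library lower, and miR-181b-5p at 12.6, 13.2 and 11.3 CPM and 7.73, 7.54 and 0.858 CPM. These cells are in a naive state held by 2i and Lif, unlike the epiblast. O48 minus WT gave -1.67 (SE 0.47, adjusted p = 0.0575) for miR-181a-5p and -1.15 (SE 0.75, adjusted p = 0.462) for miR-181b-5p, and no member passed, where 13.7% of 773 miRNAs did. One member had an unadjusted p under 0.05, miR-181a-5p, which DESeq2 called (0.0307, with 0.0278 to 0.207 over all alternatives). The scaling matters here: the median of all miRNAs was -0.28 with the main normalization, and other size factors moved it by 0.37.

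The libraries labelled Mir-6KO, whose deleted miRNAs were present, differed from O48 in 3 of 4 members. miR-181a-5p stood at 236 and 149 CPM and miR-181b-5p at 149.6 and 77.3 CPM, all above the O48 libraries, with log2 fold changes of 3.57 (SE 0.53, adjusted p = 0.00089) and 3.86 (SE 0.85, adjusted p = 0.00639). miR-181c-5p was at 38.9 and 0 CPM. miR-181d-5p, at 651 and 461 CPM, gave -0.58 (SE 0.20, adjusted p = 0.0428) while the median of all miRNAs was -0.82. That call was lost with DESeq2 (0.175), RLE size factors (0.181), the replicate block (0.104) and only the groups compared (0.281). It was also lost without Mir-6KO replicate 2 (0.0721), O48 replicate 1 (0.0921) or O48 replicate 3 (0.107), with 0.00688 to 0.281 over all alternatives. The CPM range of miR-181d-5p covered that of O48. Higher calls made up 19.9% and lower calls 30.9% of all miRNAs. The epiblast miRNAs had a median sum of 253666 CPM in these libraries against 989 CPM in O48, so these differences are between the libraries labelled Mir-6KO and O48 and cannot be told apart from a difference in cell state or in identity.

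**Figure D5:**
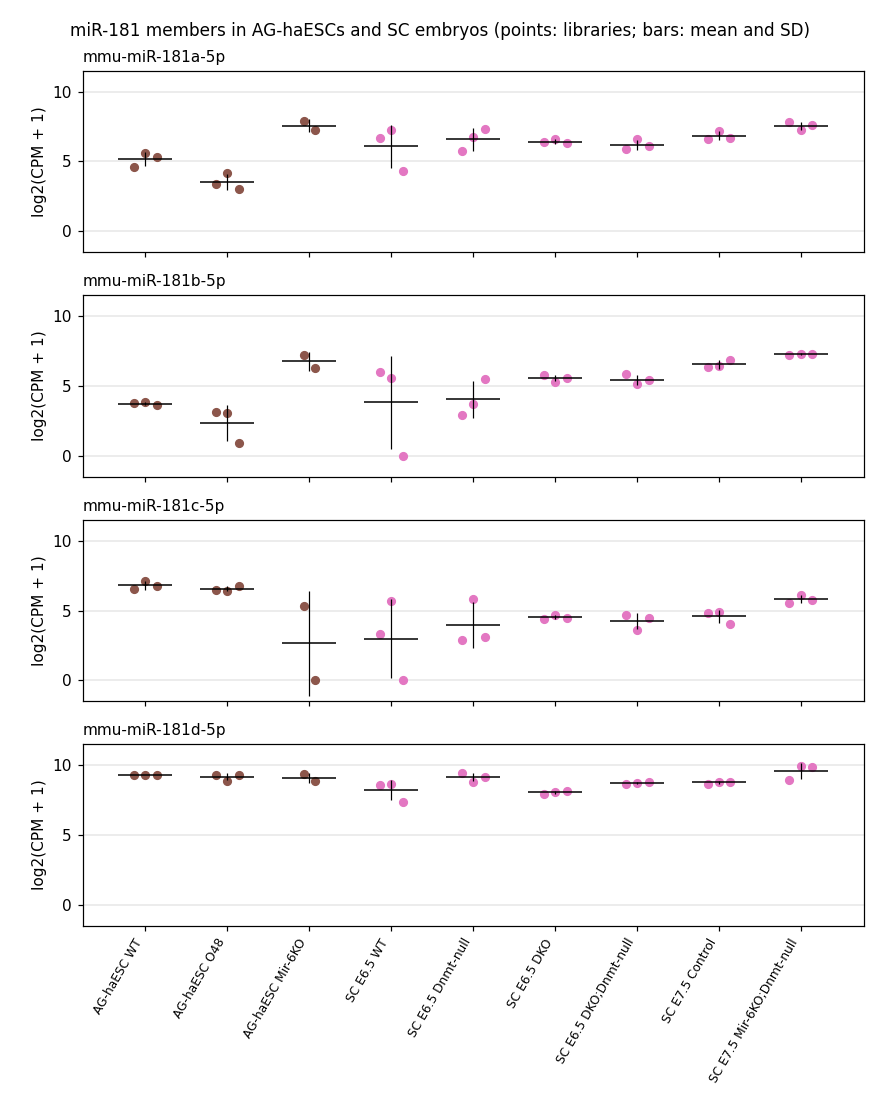
Levels of the 4 members in AG-haESCs and SC embryos as log2(CPM + 1) on the y axis by group on the x axis (points, libraries; bars, mean and SD). miR-181d-5p lies between 166 and 972 CPM throughout, whereas miR-181a-5p lies between 7.29 and 47.1 CPM in the WT and O48 cells and between 19.4 and 224 CPM in the SC embryos.

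For SC embryos the labels name no dissected tissue, and the study describes the E6.5 DKO, WT and *Dnmt*-null SC samples as epiblast. At E6.5, miR-181d-5p stood at 376, 408 and 166 CPM in WT, 682, 456 and 569 CPM in *Dnmt*-null and 245, 276 and 284 CPM in DKO. All *Dnmt*-null libraries lay above WT, and DKO lay within the WT range. Neither comparison called a member: *Dnmt*-null minus WT gave 0.63 (SE 0.34, adjusted p = 0.34) for miR-181d-5p, or 0.32 without WT replicate 3, and DKO minus WT -0.36 (SE 0.34, adjusted p = 0.65), or -0.54 without it. Calls made up 1.52% and 0.217% of 461 miRNAs, and 0 members had an unadjusted p under 0.05 or were called by DESeq2.

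DKO;*Dnmt*-null embryos, deposited in a table of 895 miRNAs of their own, held 403, 429 and 438 CPM of miR-181d-5p, every library above DKO. On the log2 scale this was 0.54 (SE 0.13, adjusted p = 0.00246 by edgeR over 603 miRNAs in both tables), where 18.7% of miRNAs were called higher. It was the only member called of the 4. miR-181a-5p stood at 57.8, 96.0 and 66.7 CPM against 81.8, 95.7 and 77.5 CPM in DKO. Table and group cannot be told apart in this contrast, and the epiblast miRNAs were lower in DKO;*Dnmt*-null (130119 to 147052 CPM) than in DKO (177971 to 196784 CPM). Other lists were higher in DKO;*Dnmt*-null without overlap: the 4 endoderm miRNAs (2540 to 3505 against 1592 to 1953 CPM), the 6 Exe miRNAs (18209 to 23710 against 14910 to 17016 CPM), the blood miRNAs (114 to 169 against 41.0 to 57.7 CPM) and the mesenchyme miRNAs (179 to 244 against 137.7 to 159 CPM), of which the smaller table lacks 1 of 6 and 1 of 4. The part of these in the result was not tested.

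At E7.5, Mir-6KO;*Dnmt*-null SC embryos held 497, 972 and 955 CPM of miR-181d-5p against 407, 448 and 449 CPM in Control. miR-181b-5p, at 147, 158 and 158 CPM against 80.3, 83.3 and 118 CPM, and miR-181c-5p, at 46.5, 69.2 and 53.9 CPM against 27.7, 28.4 and 15.6 CPM, likewise did not overlap, and miR-181a-5p (224, 148 and 192 CPM against 95.7, 146 and 104 CPM) was separated only narrowly. All 4 members thus lay above Control in every library, but the share of all miRNAs that separated in this way was not counted. None of the members passed: the log2 fold changes were 0.45 (adjusted p = 0.869), 0.47 (0.926), 1.04 (0.888) and 0.68 (SE 0.34, adjusted p = 0.461) for miR-181a-5p to miR-181d-5p. Only 3.25% of 585 miRNAs were called, and 0 members had an unadjusted p under 0.05 or were called by DESeq2. The epiblast miRNAs were at 178106 to 220309 CPM in Control and 77546 to 170777 CPM in Mir-6KO;*Dnmt*-null, without overlap, and the endoderm miRNAs at 1545 to 3538 and 3852 to 4588 CPM, and their part was not tested. The miRNAs deleted on 1 copy were still present in Mir-6KO;*Dnmt*-null, with miR-127-3p at 34218 to 51921 CPM against 52288 to 67386 CPM in Control and miR-409-3p at 17714 to 20235 against 22321 to 28798 CPM. The remaining deleted miRNAs overlapped Control: miR-541-5p (22840 to 30071 against 28027 to 36270 CPM), miR-540-3p (1132 to 1488 against 1274 to 1770 CPM), miR-369-3p (72.0 to 147 against 130 to 140 CPM) and let-7b-5p (4.42 to 41.3 against 18.0 to 33.4 CPM).

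WT SC embryos at E6.5 were set against the WT AG-haESCs, the cell type used in place of sperm. miR-181c-5p, at 8.87, 49.8 and 0 CPM, and miR-181d-5p, at 376, 408 and 166 CPM, were lower in every SC library than in the AG-haESCs, with log2 fold changes of -2.90 (SE 0.90, adjusted p = 0.0355) and -1.58 (SE 0.42, adjusted p = 0.021). miR-181a-5p, at 104, 151 and 19.4 CPM, and miR-181b-5p, at 62.1, 45.9 and 0 CPM, gave 0.78 (SE 0.68, adjusted p = 0.398) and 0.98 (adjusted p = 0.434). Hence 2 of 4 members were called lower, where 21.6% of miRNAs were. Without WT SC replicate 3, all 4 were called, miR-181a-5p and miR-181b-5p higher (1.2, adjusted p = 0.0339, and 1.48, adjusted p = 0.0117) and miR-181c-5p and miR-181d-5p lower (-2.41 and -1.34). Without any 1 of the AG-haESC libraries the calls of miR-181c-5p and miR-181d-5p were lost (adjusted p of 0.0967 to 0.131 and of 0.0762 to 0.0873), and that of miR-181c-5p also without WT SC replicate 1 (0.119 by edgeR).

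The other strands of the hairpins were mostly scarce. Of the 6 3p arms, miR-181b-1-3p was at 0 in 87 of 88 libraries, miR-181b-2-3p in 85 of 85, miR-181a-2-3p in 71 of 85, miR-181a-1-3p in 47 of 88 and miR-181d-3p in 31 of 88. The exception was miR-181c-3p, at 0 in 13 of 88. miR-181a-2-3p, made only from *Mir181a-2*, was over 3 counts in 9 libraries and reached 17.8 CPM at most. By edgeR it was called lower in the libraries labelled Mir-6KO than in O48 (-8.29, adjusted p = 0.00322). It was also lower in WT SC embryos than in WT AG-haESCs (-7.11, adjusted p = 0.0352), but not called in O48 minus WT (-0.51, adjusted p = 0.874). miR-181a-5p gave 3.57 (called) and 0.78 (not called) where this arm was called. The stability of these calls was not tested. The 4 3p arms of the a, c and d hairpins are printed with bases 2 to 8 in capitals, since they show that the opposite strands do not share the family seed.
mmu-miR-181a-1-3p: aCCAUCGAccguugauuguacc
mmu-miR-181a-2-3p: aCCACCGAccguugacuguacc
mmu-miR-181c-3p: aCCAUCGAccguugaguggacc
mmu-miR-181d-3p: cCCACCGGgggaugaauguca
The 6 arms hold 4 seeds: miR-181a-1-3p and miR-181c-3p share one, and the 2 miR-181b arms, not printed because they were hardly detected, share another.

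miR-181c-3p exceeded its 5p partner in 67 of 88 libraries, the 5p arm was higher in 11 and 10 were tied. The 3p arm led in 8 of 8 AG-haESC libraries, 18 of 18 SC libraries and 41 of 62 embryo libraries. In WT AG-haESCs it stood at 255, 269 and 276 CPM, against 91.5, 138 and 105 CPM of miR-181c-5p. Made from the same cluster as miR-181d-5p, it passed in 5 comparisons. In the order given below, 15.6%, 5.98%, 16.3%, 30.9% and 21.6% of all miRNAs tested there were called in the same direction. In E6.5 Control miR-181c-3p stood at 55.9, 10.7, 64.8 and 45.8 CPM in Epi and 0, 0, 0 and 12.8 CPM in Exe (-3.66, SE 1.29, adjusted p = 0.0397). In E7.5 Epi it stood at 22.8, 17.0 and 12.9 CPM in Control, and every library of *Dnmt3a/3b*-DKO (52.1, 83.4, 84.8 and 71.0 CPM) and *Dnmt*-null (58.6, 84.0 and 82.1 CPM) lay above it. It rose there by 1.95 (SE 0.56, adjusted p = 0.0328) and 1.85 (SE 0.59, adjusted p = 0.0202). These calls were not stable: the adjusted p reached 0.0929 in the E6.5 tissue contrast, 0.174 in *Dnmt3a/3b*-DKO and 0.082 in *Dnmt*-null when 1 library was left out. The call was lost at E6.5 without Epi Control replicate 1, 3 or 4 or Exe Control replicate 1, 2 or 3, in *Dnmt3a/3b*-DKO without any 1 Control library or its own replicate 2, 3 or 4, and in *Dnmt*-null without Control replicate 2 or 3 or its own replicate 2 or 3. Without a filter on low counts each of these calls was lost too (adjusted p of 0.0773, 0.0845 and 0.0513 by edgeR, in the same order). With the replicate block that in *Dnmt3a/3b*-DKO was lost (0.0894). miR-181c-3p was lower in the libraries labelled Mir-6KO than in O48 (-2.06, SE 0.23, adjusted p = 0.000188) and lower in WT SC embryos than in WT AG-haESCs (-2.37, SE 0.41, adjusted p = 0.00358). In other contrasts it parted from miR-181d-5p: the E7.5 Control tissue contrast was -0.081 (adjusted p = 0.979, or -1.37 without E7.5 Exe Control replicate 4 and above 0 without Epi Control replicate 1) against -1.14, E6.5 Epi *Dnmt*-null minus Control was -1.22 (adjusted p = 0.495) against 0.94, and DKO;*Dnmt*-null minus DKO was 0.23 (adjusted p = 0.480) against 0.54.

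Outside the family, the miRNAs whose group means over 24 groups were most like each member, among 815 with at least 10 CPM in some group, were miR-139-3p, miR-325-3p and miR-6540-5p for miR-181a-5p (Spearman's rho 0.793, 0.778 and 0.759). For miR-181b-5p they were miR-222-3p, miR-92a-3p and miR-18b-3p (0.824 to 0.831). For miR-181c-5p they were miR-182-5p, miR-3535 and miR-9-5p (0.764, 0.755 and 0.743), and for miR-181d-5p miR-182-5p, miR-205-3p and miR-183-5p (0.827, 0.791 and 0.790). These are descriptions of profiles that share libraries and depth. By Spearman's rho miR-182-5p was on both lists of the chromosome 8 members, but Pearson's correlation kept only 4 of the 12 names, dropped miR-182-5p from the list of miR-181d-5p and put miR-325-3p on those of both miR-181a-5p and miR-181b-5p. Among 375 miRNAs with at least 1 CPM in every group, miR-181a-5p had miR-20a-3p, miR-302c-3p and miR-204-5p instead. For miR-181d-5p miR-205-3p gave way to miR-96-5p there, and the lists of miR-181b-5p and miR-181c-5p were unchanged.

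Over all 30 comparisons, 110 tests of a member could be made, and 11 passed (10%), 5 higher and 6 lower. Over all miRNAs 14.6% of 16621 tests passed, so the members were not called more often than miRNAs in general. Unadjusted p was under 0.05 in 25, and DESeq2 called 17, where it called 19.5% of all tests. In 23 comparisons no member was called.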

How the data were processed

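CAS-seq miRNA libraries were analysed from 2 tables deposited by the authors, whose values are whole-number read counts that were not normalized, 1 count for each mature miRNA in a library. Per the methods, the authors trimmed reads with fastp 0.20.1, mapped reads to GRCm38 (Bowtie 1.2.1.1) and then to the mature miRNAs of miRBase, and compared groups with DESeq2 1.30.1. Molecular identifiers are not mentioned, so limits from counts cover counting error only. A further table of 90 columns, 88 with the same counts and 2 of no sample used here, was not used.

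CPM was computed here from each deposited count and its library's total. Groups were compared with edgeR 4.0.16 (R 4.3.3): TMM, filterByExpr with a minimum count of 10, robust quasi-likelihood F test (two-sided), and Benjamini-Hochberg adjustment over all miRNAs tested. A miRNA was called with an adjusted p under 0.05. SE was derived from the log2 fold change and F. The Control tissues and stages, the 4 genotypes of each tissue and stage, the Control and *Dnmt*-null groups of a stage (for the interaction), the AG-haESCs, the SC embryos of each stage, and the WT SC embryos with the WT AG-haESCs were fitted together, and DKO;*Dnmt*-null with DKO over miRNAs of both tables. Alternatives were DESeq2 1.42.0, RLE size factors, other filters, only the groups compared, the study's thresholds, a replicate block and leaving out each library. Scripts were tested on simulated counts. No replicates looked like copies (lowest chi-square per degree of freedom 4.20).

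Replicate numbers in the labels were checked for pairing by correlating deviations from group means. All same-number pairs exceeded 0.1 for E6.5 Epi *Dnmt*-null with Control (4 pairs, 0.137 to 0.302) and SC E6.5 DKO with WT (3 pairs, 0.170 to 0.285) only, and there no member was called with or without the block. Named miRNAs were the 4 members, the 3p arms, the 3 miRNAs most similar to each member and marker lists. The members and lists were chosen with earlier results of these data known. The 3 AG-haESC libraries labelled 408, which the labels place in no group, entered no comparison.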

Additional observations from a re-analysis of the deposited data

Results flagged for a closer look

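Among 55 groups of 4 libraries (member by group), 10 held 1 library whose distance from the nearest other exceeded Dixon's limit. Chance gives about 1 in 20 for continuous values, which cannot be set against this count, because in 5 of the 10 the other 3 libraries were at 0 and any count then exceeds the limit. High values were those of miR-181a-5p in E6.5 Epi *Dnmt*-null replicate 3 (390.1 CPM), of miR-181b-5p in E6.5 Exe Control replicate 2 (50.4 CPM), E6.5 Exe *Dnmt*-null replicate 4 (10.5 CPM) and E7.5 Exe *Dnmt*-null replicate 3 (47.3 CPM), and of miR-181c-5p in E6.5 Exe Control replicate 2 (7.19 CPM), E6.5 Exe *Dnmt3a/3b*-DKO replicate 4 (12.9 CPM), E6.5 Exe *Dnmt*-null replicate 4 (31.6 CPM), E6.5 Epi *Dnmt1*-KO replicate 4 (67.7 CPM) and E6.5 Epi *Dnmt*-null replicate 1 (597 CPM). The low value was miR-181a-5p in E7.5 Epi *Dnmt1*-KO replicate 4 (128 CPM). The E6.5 Exe cases are those with the others at 0, and apart from miR-181b-5p in Control replicate 2 they rest on 1 to 3 counts.

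The 3 AG-haESC libraries that no comparison used held all 4 members above 3 counts. Their lowest levels were 27.6 CPM of miR-181a-5p, 17.8 CPM of miR-181b-5p, 112 CPM of miR-181c-5p and 625 CPM of miR-181d-5p.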

How the results depend on the processing

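Counts of members called moved as follows. In the Control tissue and stage comparisons the 4 calls (23.5% of all miRNA tests were called) became 7 with DESeq2 (29.3%) and 8 (33.5%) at the study's thresholds (absolute log2 fold change above 0.5, unadjusted p under 0.05). In the genotype comparisons the 1 call (8.84%) became 3 with DESeq2 (12.5%), 2 with RLE size factors (8.74%), 2 with a mean count filter of 10 (10.2%) and 9 (17.8%) at the study's thresholds. In the interaction of the *Dnmt*-null effect the 0 (3.29%) became 1 with DESeq2 (7.3%), 1 without a filter (3.5%) and 1 (15.3%) at the study's thresholds. Pearson's correlation kept 4 of the 12 most similar miRNAs. Leaving out 1 library at a time gave 2 to 7 calls in Control, 0 to 2 between genotypes, 0 in the interaction, 2 to 4 in AG-haESCs, 1 in SC embryos and 0 to 4 between WT SC embryos and AG-haESCs. Among log2 fold changes of the members, 317 refits without a library kept direction and side of the threshold, 7 gained a call, 16 lost one and 1 reversed, miR-181d-5p between the stages of Control Exe (-0.086 without E6.5 Exe Control replicate 4, range -0.086 to 0.30). For miR-181c-3p, 16 such refits lost a call, 35 did not change and 2 reversed, both in the E7.5 Control tissue contrast (range -1.37 to 0.17; 0.17 without E7.5 Epi Control replicate 1 and 0.009 without E7.5 Exe Control replicate 2). With the replicate block the calls were 3, 1, 0, 2, 1 and 2 in the same order, losing miR-181d-5p between the E7.5 Control tissues (adjusted p = 0.0563) and between the libraries labelled Mir-6KO and O48 (0.104). The causes were not tested. The shallow E6.5 Exe libraries limit what could be seen of miR-181b-5p and miR-181c-5p.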

Other observations

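In the 3 AG-haESC libraries labelled 408, which the labels place in no group, miR-181a-5p stood at 27.6, 49.5 and 27.7 CPM, miR-181b-5p at 24.5, 22.6 and 17.8 CPM, miR-181c-5p at 144, 112 and 130.5 CPM, and miR-181d-5p at 625, 704 and 711 CPM. miR-181c-3p stood at 301, 294 and 313 CPM, again above the 5p arm in each of the 3.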
